A study of Mus musculus with 8 samples.

Results

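A set of 10 keratin genes that describe the layers of a stratified epithelium at rest was followed in RNA of the whole mouse esophagus. They were the basal keratins Krt5, Krt14 and Krt15, the mucosal suprabasal keratins Krt4 and Krt13, the epidermal suprabasal keratins Krt1 and Krt10, and the simple epithelial keratins Krt7, Krt8 and Krt18. The members were taken by gene symbol, 10 of the 49315 gene identifiers counted and 10 of the 54 identifiers that carry a keratin symbol. The libraries came from wild-type animals: 3 from animals whose drinking water held 0.5% SDS (sodium dodecyl sulfate, the detergent of many soaps and toothpastes) and 5 from untreated animals, all taken at day 14. The treatment text names whole esophagus homogenates, whereas the extraction text speaks of cell pellets, and the values are read here as whole organ. Age, sex and strain were not given in the sources used here. Nothing in the labels says that the libraries of a group came from separate animals, so the p-values measure the spread between these libraries. In such bulk RNA, fewer cells of a type and less RNA per cell cannot be told apart.

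Keratins are the intermediate filament proteins of epithelial cells and form filaments only as pairs of a type I and a type II protein. In stratified epithelia, dividing basal cells make the type II keratin Krt5 with the type I keratins Krt14 and Krt15, and cells that leave the basal layer change to another pair. In the lining of the mouth and esophagus that pair is Krt4 (type II) with Krt13 (type I), in skin it is Krt1 (type II) with Krt10 (type I), and in single-layered epithelia and mesothelium it is Krt8 and Krt7 (type II) with Krt18 (type I). The type II genes lie together with Krt18 on mouse chromosome 15, and the other type I genes on chromosome 11.

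The libraries held 22033866 to 29802362 counts in genes, of which 1.89% to 4.22% were mitochondrially encoded. SDS library 3 stood apart from the other SDS libraries: the 4 stress keratins (Krt6a, Krt6b, Krt16 and Krt17) summed to 182 CPM (counts scaled to library size) in it, against 13313 and 10667 in SDS libraries 1 and 2 and 85.1 to 152 in the controls. Control library 4 had the highest summed level of 7 adipocyte genes, 5092 CPM against 38.4 to 1164 in the other controls, and the lowest summed level of 20 genes common to epithelia, 1201 CPM against 1659 to 2783. Epithelial markers were present in every library. Of 17179 genes tested with edgeR's quasi-likelihood test, 180 passed at a Benjamini-Hochberg adjusted p of 0.05, which is 1.05%, and group ranges did not overlap for 13.4%.

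The basal keratins Krt5 and Krt14 share long runs of sequence with the keratins that are induced by stress, which matters for how reads could be divided between them. The longest identical coding stretch of Krt14 (mm10 chr11:100203162-100207548, minus strand) and Krt16 was 134 bases, at coding positions 306 to 439 of Krt14 and 282 to 415 of Krt16. In the pairs of sequences below, from the GENCODE M21 transcripts on mm10, capitals mark the identical run and lower case the 10 flanking bases on each side, where the genes part.
Krt14: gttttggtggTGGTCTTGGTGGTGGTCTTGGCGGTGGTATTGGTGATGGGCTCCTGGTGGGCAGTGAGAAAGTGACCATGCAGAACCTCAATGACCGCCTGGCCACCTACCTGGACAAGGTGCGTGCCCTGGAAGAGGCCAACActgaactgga
Krt16: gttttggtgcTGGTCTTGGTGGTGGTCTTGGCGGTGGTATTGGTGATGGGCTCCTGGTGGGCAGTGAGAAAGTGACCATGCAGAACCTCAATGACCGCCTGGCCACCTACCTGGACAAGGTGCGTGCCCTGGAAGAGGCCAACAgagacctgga
Between the basal type I keratins themselves, Krt14 and Krt15, the longest identical coding stretch was shorter, at 28 bases.
Krt14: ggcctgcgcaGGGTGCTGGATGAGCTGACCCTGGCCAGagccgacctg
Krt15: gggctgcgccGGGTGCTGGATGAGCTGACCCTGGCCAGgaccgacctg

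Aligned over their coding sequences, Krt14 was 86.5% identical to Krt16, 84.1% to Krt17 and 74.1% to Krt15. Of all 50-base words of the Krt14 transcript, 14.4% also occurred in a transcript of another gene, which was Krt16 or Krt17, and of those of Krt5 12.2% did, mostly in Krt6a. For Krt8 the share was 29.7%, most of it in the pseudogene Krt8-ps. For Krt15, Krt18 and Krt7 it was under 1%, for Krt10 it was 2.44%, and for Krt4, Krt13 and Krt1 it was 0%. How reads with several matches were counted is not given in the sources used here, so the levels of Krt14, Krt5 and Krt8 are uncertain by a share that cannot be read from the counts. Antisense genes overlap Krt5 by 129 bases (Gm44323, with 0 counts in every library) and Krt10 by 558 bases (Gm11940, with at most 6 counts).

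The start regions of the members were read from the RefSeq promoter table (GRCm38.p6), which held 7 of the 10 genes. For 5 of these the table's start lay within 100 bases of the start in the count tables. A TATA-type word, ATAAANG, stood on the gene's own strand between 50 and 11 bases before the start in 3 of those 5, namely Krt5, Krt13 and Krt10. The same window held it in 1.97% of the 32851 promoters of the table, and 12.98% held it on either strand in the whole window of 300 bases. The motif was chosen after the sequences were seen, and another spelling of a TATA word would give another count. The last 60 bases before the start are shown for these 5 genes, as members of each keratin group, with the motif in capitals.
Krt5 (chr15:101712906-101712965, minus strand): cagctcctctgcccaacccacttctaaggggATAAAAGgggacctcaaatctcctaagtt
Krt13 (chr11:100121567-100121626, minus strand): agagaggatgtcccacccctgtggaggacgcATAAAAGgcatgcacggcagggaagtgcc
Krt10 (chr11:99389365-99389424, minus strand): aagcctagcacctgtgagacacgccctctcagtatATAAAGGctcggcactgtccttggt
Krt8 (chr15:102004343-102004402, minus strand): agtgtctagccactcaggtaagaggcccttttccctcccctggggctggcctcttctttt
Krt18 (chr15:102028156-102028215, plus strand): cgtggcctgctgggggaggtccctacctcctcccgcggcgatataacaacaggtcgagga
The motif began 29 bases before the start in Krt5 and Krt13 and 25 bases before it in Krt10. A match is a description of these letters and not a measured binding site.

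In the untreated esophagus the mucosal pair dominated all other keratins. Levels between genes are compared here as TPM, in which counts are divided by gene length before they are scaled to the library. Krt13 stood at 57276 ± 18726 TPM (SD, n = 5 libraries, as for the other control levels here) and Krt4 at 50129 ± 17678. The basal keratins followed with Krt5 at 2823 ± 815, Krt15 at 2026 ± 402 and Krt14 at 793 ± 230 TPM. Next came Krt10 and Krt1, with medians of 20.4 and 7.57 TPM but single libraries far above these. The simple keratins were lowest, with means of 1.38 TPM for Krt18, 0.889 for Krt8 and 0.757 for Krt7. The ranges of Krt13 and Krt4 overlapped, as did those of Krt5 and Krt15, of Krt1 and Krt10, and of the 3 simple keratins. The mucosal pair lay above every other member in all 5 controls, and Krt14 lay below Krt15 in each of them. Krt1 reached 518 TPM in control library 4, level with Krt14 at 507 TPM there, and stood at 1.31 TPM in control library 2, within the range of Krt18. Krt7 was divided by a counted length of 7055 bases, while its main coding transcript has 4094, so its level depends on the length used.

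**Figure D1:**
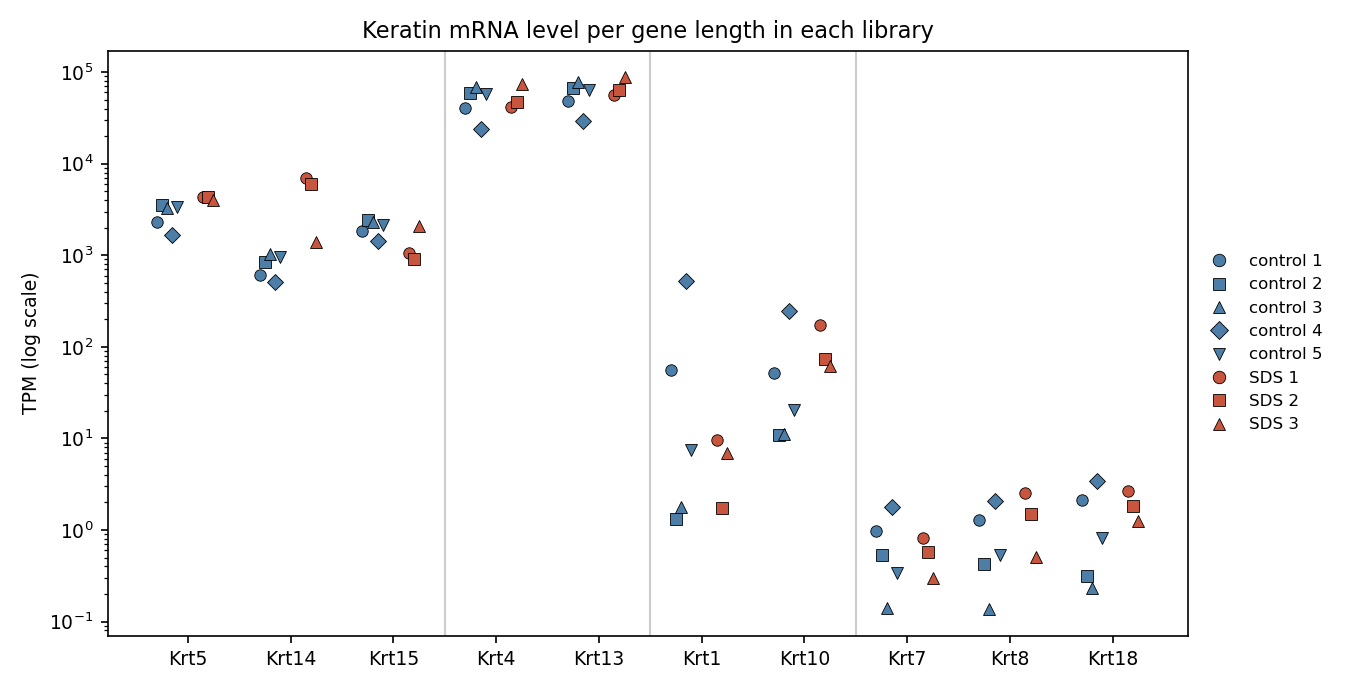
Level of each of the 10 keratins in TPM (log axis) in the 5 control and 3 SDS libraries, 1 point per library, with the genes grouped as basal, mucosal, epidermal and simple keratins. Krt13 and Krt4 lie above all others in both groups, the SDS libraries of Krt14 (1382 to 7068 TPM) and Krt5 (3994 to 4343 TPM) lie above their controls (507 to 1044 and 1646 to 3547 TPM), and Krt1 spreads most widely among the controls.

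Of all keratin RNA in the controls, counted as TPM, the mucosal pair made up 92.6% ± 1.504, the 3 basal keratins 5.04% ± 0.643 and the simple keratins 0.00388% ± 0.00499 (SD, n = 5). All keratins together made up between 5.92% of all TPM, in control library 4, and 15.6%, in control library 3. Type II keratins accounted for 47.3% ± 0.784 of the type I and II total in controls and 45.8% ± 0.514 in SDS libraries (n = 3). Single libraries lay between 46.4% and 48.2% in controls and between 45.4% and 46.3% in SDS libraries, without overlap. This difference was not tested.

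Among the 10 members, Krt14 rose in the SDS libraries and no other member passed the test. Krt14 encodes the type I partner of Krt5 in basal cells. Its level was 419, 645, 822, 325 and 675 CPM in control libraries 1 to 5 and 5036, 4008 and 1094 CPM in SDS libraries 1 to 3. Every SDS library lay above every control, with SDS library 3 much nearer to the controls than the other two. The mean went from 577 ± 202 to 3379 ± 2045 CPM (SD), a log2 fold change of 2.55 ± 0.47 (SE), or 5.85-fold, with an edgeR adjusted p of 0.0493. That is 1 of 10 members called, beside 1.05% of all genes tested (0.623% higher in the SDS libraries). The call lay close to the threshold and held in 5 of 18 alternatives: without SDS library 3 the log2 fold change was 2.97 with an adjusted p of 0.00305, and without SDS library 1 it was 2.14 with an adjusted p of 0.106. Leaving out any of the 5 controls, or SDS library 2, also ended the call, while the direction held in all 18 alternatives, with log2 fold changes of 2.14 to 2.97.

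Krt5 (chr15:101707070-101712891, minus strand), the obligate type II partner of both basal type I keratins, had higher values in the SDS libraries without passing the test. It stood at 1986, 3383, 3216, 1315 and 2913 CPM in the controls and at 3843, 3632 and 3938 CPM in the SDS libraries. All 3 SDS libraries lay above the highest control and close to each other, while the controls spread more widely than the gap between the groups. From 2563 ± 882 to 3804 ± 157 CPM, the log2 fold change was 0.57 ± 0.30 (edgeR adjusted p = 0.352). Together with Krt14, this makes 2 of 10 members whose group ranges did not overlap, both higher with SDS, beside 13.4% of all genes tested (6.49% higher and 6.89% lower).

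Krt15 (chr11:100131758-100135928, minus strand), a type I keratin of resting basal cells, had values in the other direction. It stood at 1279, 1870, 1834, 921 and 1490 CPM in the controls and at 755, 612 and 1667 CPM in the SDS libraries. SDS libraries 1 and 2 lay below every control, and SDS library 3 lay within the control range. The means of 1479 ± 397 and 1011 ± 572 CPM gave a log2 fold change of -0.55 ± 0.37 with an edgeR adjusted p of 0.478. Without SDS library 3 the log2 fold change was -1.11 and the adjusted p 0.0675, and without SDS library 2 it was -0.29.

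The makeup of the basal keratins also differed between the groups in range. Ratios were formed per library from counts per length, so they do not depend on how libraries are scaled. The ratio of Krt14 to Krt5 was 0.263, 0.238, 0.318, 0.308 and 0.289 in the controls and 1.63, 1.37 and 0.346 in the SDS libraries. The controls held a narrow range, SDS libraries 1 and 2 had more Krt14 than Krt5, and SDS library 3 lay just above the highest control. The mean log2 ratio differed by 1.71, a 3.26-fold difference, with an exact two-sided permutation p of 0.0357, which is the smallest that 5 against 3 libraries can give. Adjusted over the 11 ratios tested it was 0.0786, and none of the 11 passed 0.05 after adjustment, though 5 reached the smallest p. Without SDS library 3 the difference was 2.41. With this smallest p, a ratio could pass after adjustment only if most of the 11 reached it, so the failure says little. The ratios are also not independent, since Krt14 to Krt15 follows from Krt14 to Krt5 and Krt15 to Krt5. How often ratios of other gene pairs reach the smallest p was not tested, so the 5 of 11 stand without a share over all genes.

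The ratio of Krt15 to Krt5 was 0.798, 0.685, 0.707, 0.868 and 0.634 in the controls and 0.243, 0.209 and 0.525 in the SDS libraries. Here too all SDS libraries lay on one side of the controls, and SDS library 3 was the nearest to them. The mean log2 ratio differed by -1.30, to 0.407 of the control ratio (exact permutation p = 0.0357, adjusted 0.0786), and by -1.70 without SDS library 3. The ratio of Krt14 to Krt15, the 2 alternative partners of Krt5, was 0.330, 0.347, 0.451, 0.355 and 0.455 in the controls and 6.71, 6.58 and 0.659 in the SDS libraries. Krt15 exceeded Krt14 in all 5 controls and in SDS library 3, and Krt14 exceeded Krt15 in SDS libraries 1 and 2. The mean log2 difference was 3.00, or 8.02-fold (exact permutation p = 0.0357, adjusted 0.0786), and 4.11 without SDS library 3.

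**Figure D2:**
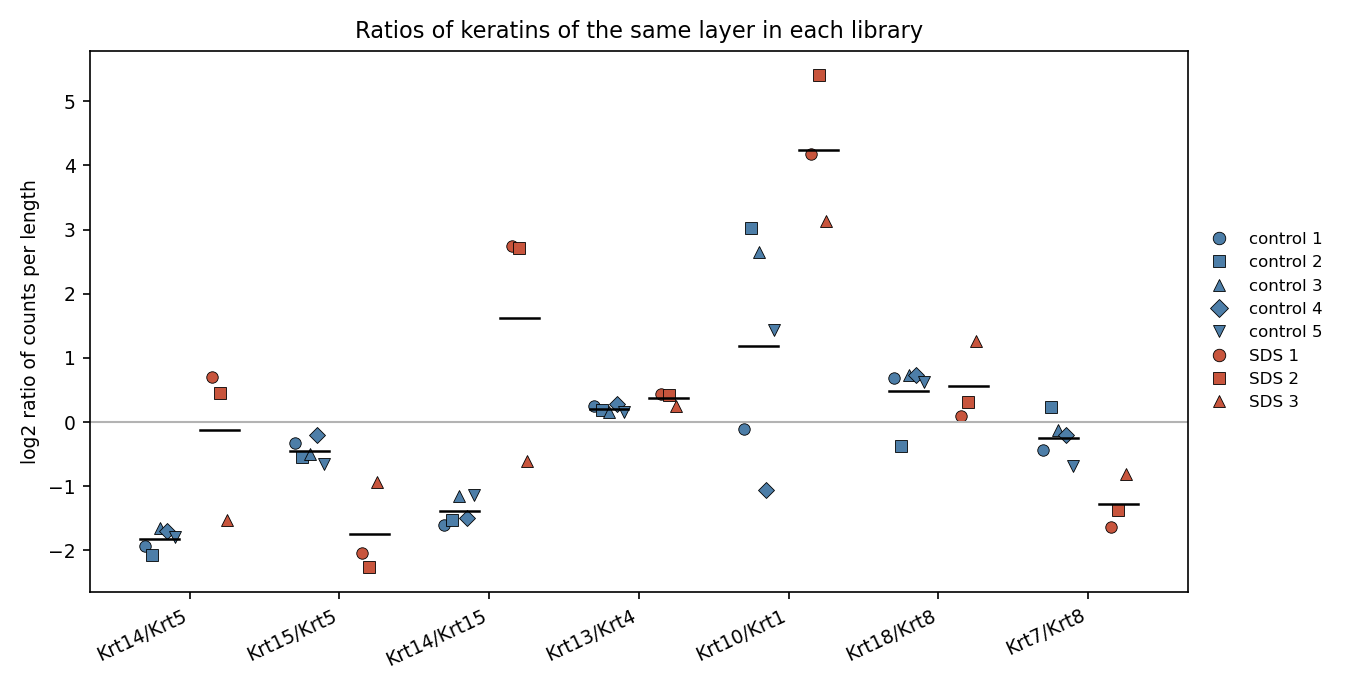
Ratio of 2 keratins per length in each library (log2 axis), with control and SDS libraries as separate points. Only the pairs within 1 keratin group (basal, mucosal, epidermal or simple) are drawn, and the ratios to the mucosal keratins are not. The Krt14/Krt15 ratio runs from 0.330 to 0.455 in controls and from 0.659 to 6.71 in SDS libraries, while the Krt13/Krt4 ratio stays between 1.11 and 1.35 in all 8.

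Expressed as shares of the 3 basal keratins, Krt14 made up 12.4% to 15.7% in the controls and 56.8%, 53.2% and 18.5% in SDS libraries 1 to 3. Krt15 made up 33.0% to 39.9% in the controls and 8.46%, 8.08% and 28.05% in the SDS libraries. Krt5 made up 46.0% to 52.0% in the controls and 34.8%, 38.7% and 53.5% in the SDS libraries. Thus the type I side of the basal set was mostly Krt15 in every control and mostly Krt14 in SDS libraries 1 and 2. The stress keratins, which share sequence with Krt14 and Krt5, were highest in these same 2 libraries, and the part of shared reads in the Krt14 level was not tested.

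The mucosal suprabasal pair, the main filament proteins of differentiating esophageal cells, did not pass the test in either direction. Krt4 (chr15:101918536-101924735, minus strand) stood at 34405, 54374, 65923, 18748 and 49187 CPM in the controls and at 36364, 38822 and 70592 CPM in the SDS libraries. Krt13 (chr11:100117327-100121566, minus strand) stood at 34892, 53020, 62960, 19388 and 46740 CPM in the controls and at 41997, 44538 and 71974 CPM in the SDS libraries. In both genes control library 4 was lowest, SDS library 3 was highest and the groups overlapped. The log2 fold change was 0.13 ± 0.42 for Krt4 (edgeR adjusted p = 0.906) and 0.28 ± 0.39 for Krt13 (edgeR adjusted p = 0.748), and that of Krt4 changed sign without control library 4 (-0.06), without SDS library 3 (-0.24) and when libraries were scaled to the epithelial genes (-0.05). That of Krt13 was 0.0025 without SDS library 3, 0.11 without control library 4 and 0.46 without control library 3.

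Krt4 and Krt13, encoded on different chromosomes, moved together from library to library. After each was centred on its mean, the root mean square difference of their log2 CPM over the 8 libraries was 0.10, beside a range of 1.89 for Krt13 itself. The Krt13 to Krt4 ratio was 1.19, 1.14, 1.12, 1.21 and 1.11 in the controls and 1.35, 1.34 and 1.19 in the SDS libraries. SDS libraries 1 and 2 lay above all controls and SDS library 3 among them, a mean log2 difference of 0.17 with an exact permutation p of 0.0714 (adjusted 0.112). This was the most even ratio of the 11, with a control SD of 0.05 on the log2 scale.

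As a share of all keratin TPM, the mucosal pair made up 93.0%, 93.1%, 93.8%, 89.99% and 93.2% in the controls and 76.7%, 80.9% and 94.2% in the SDS libraries. SDS libraries 1 and 2 lay below every control and SDS library 3 above every one. The stress keratins made up 12.6% and 9.89% in SDS libraries 1 and 2, and at most 0.308% in the other 6 libraries. The 3 basal keratins made up 4.26% to 6.05% in the controls and 9.65%, 8.13% and 4.36% in the SDS libraries. The ratio of Krt14 to Krt13 was 0.0124 to 0.0174 in the controls and 0.124, 0.0932 and 0.0157 in the SDS libraries, with SDS library 3 inside the control range (difference 2.01 on the log2 scale, exact permutation p = 0.0714, adjusted 0.112). For Krt5 to Krt4 it was 0.0475 to 0.0683 in the controls and 0.103, 0.0911 and 0.0543 in the SDS libraries (difference 0.47, exact permutation p = 0.179, adjusted 0.246, with 0.75 without SDS library 3 and 0.29 without SDS library 1). In both ratios of basal to mucosal keratins, SDS libraries 1 and 2 were the highest of the 8.

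**Figure D3:**
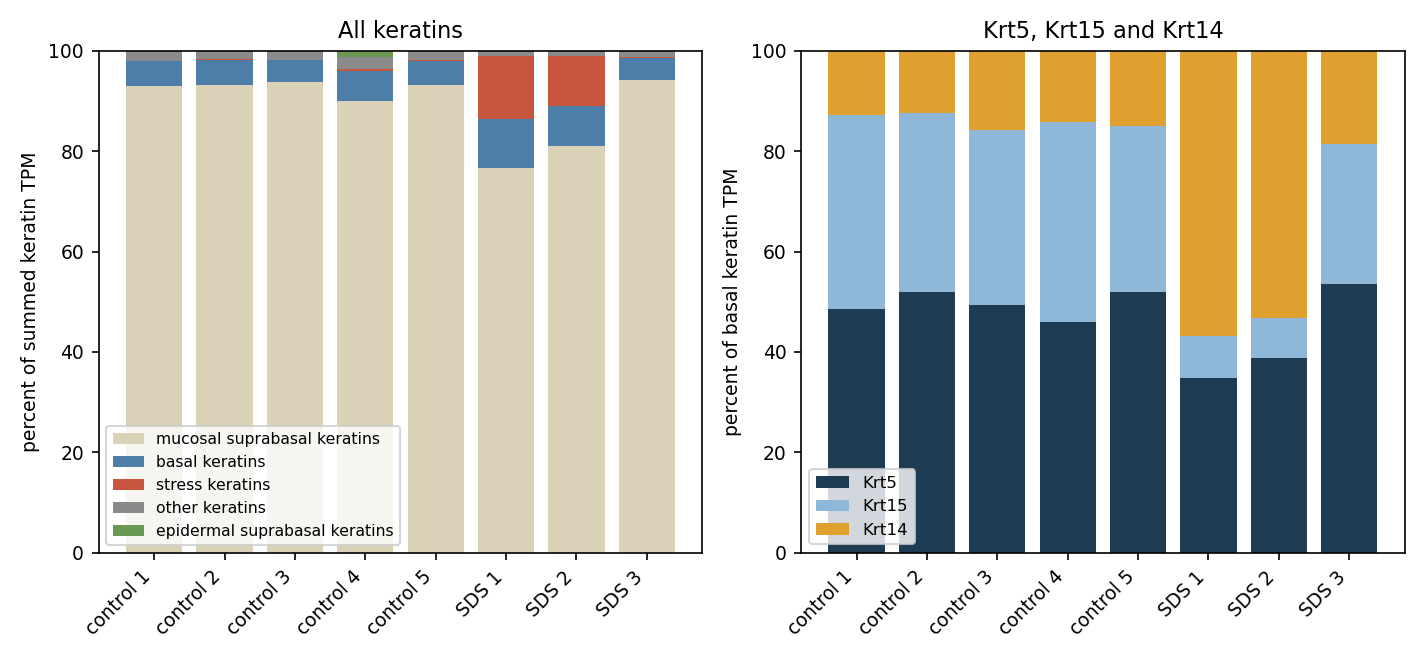
Share of each keratin group in the summed keratin TPM of every library, in percent. The mucosal pair fills 89.99% to 93.8% of the control bars, 94.2% of SDS library 3, and 76.7% and 80.9% of SDS libraries 1 and 2, where stress and basal keratins take most of the rest.

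The epidermal pair was low and uneven in the controls. Krt1 (chr15:101845428-101850786, minus strand), the type II keratin of suprabasal skin, stood at 53.9, 1.40, 1.96, 462 and 7.36 CPM in the controls and at 9.55, 1.62 and 7.67 CPM in the SDS libraries. Control library 4 held most of the Krt1 reads of the study and control library 1 was next, while the SDS libraries lay within the range of the other controls. The fitted log2 fold change of -4.07 ± 2.02 did not pass (edgeR adjusted p = 0.327), and without control library 4 it was -1.37 (adjusted p = 0.624). The highest control exceeded the lowest by 331-fold.

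Krt10 (chr11:99385254-99389364, minus strand), the type I partner of Krt1, stood at 43.1, 10.02, 10.7, 192 and 17.2 CPM in the controls and at 150, 59.8 and 58.4 CPM in the SDS libraries. All 3 SDS libraries lay above controls 1, 2, 3 and 5, and control library 4 lay above all of them. The log2 fold change was 0.71 ± 0.97 (edgeR adjusted p = 0.748), with 2.14 without control library 4 (adjusted p = 0.119) and 0.11 without SDS library 1. The partners therefore differed most in the SDS libraries: the Krt10 to Krt1 ratio was 0.925, 8.17, 6.28, 0.481 and 2.69 in the controls and 18.1, 42.4 and 8.78 in the SDS libraries. Every SDS ratio lay above every control ratio, with SDS library 3 close to control library 2. The mean log2 difference was 3.05, or 8.29-fold (exact permutation p = 0.0357, adjusted 0.0786), and 3.60 without SDS library 3.

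Against the mucosal pair the epidermal keratins showed no difference that passed. The log2 ratio of Krt10 to Krt13 was higher by 1.21 in the SDS libraries (exact permutation p = 0.464, adjusted 0.567), and that of Krt1 to Krt4 differed by -1.67 (exact permutation p = 0.643, adjusted 0.707). Both depended on single libraries: the first was 2.18 without control library 4 and 0.62 without SDS library 1, and the second was -0.13 without control library 4 and -2.60 without control library 2. Controls 1 and 4, which had the highest Krt1, also had the highest summed adipocyte genes among controls, 1164 and 5092 CPM, against 38.4 to 674 in controls 2, 3 and 5. Of the 7 adipocyte genes all were tested and none passed, and their sum ran from 96.0 to 1455 CPM in the SDS libraries. Flg, a gene of the cornified skin layer that was picked here after its values were seen, stood at 98.1, 7.13, 13.7, 317 and 50.8 CPM in the controls and at 64.1, 2.85 and 25.3 CPM in the SDS libraries, again highest in control library 4. The suprabasal and cornified list that holds Flg went the other way in sum. The list stood at 22864.5 to 44174 CPM in the controls, lowest in control library 4. The sum leans on Lor, at 11805 CPM in that library. Ivl (7.60 CPM) and Flg2 (2.40 CPM, under the filter), also picked after their values were seen, were highest there among controls. Most genes of the list were lowest there among controls. Of 13 matched genes of hair follicle and skin, 5 passed the filter on low counts and the hair keratins Krt25 and Krt71 had 0 counts in every library. The list summed to 426 to 698 CPM in controls, lowest in control library 4, and to 387 to 669 CPM in SDS libraries. Nearly all of this sum was Lce1a1 and Lce1b, at 233 and 189 CPM in control library 4. The sum without these genes was not taken. The part of either tissue in the Krt1 and Krt10 levels was not tested.

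The simple keratins were near the floor of detection, which at 3 counts was 0.101 to 0.144 CPM, so few reads stand behind their values. Krt8 (chr15:101996711-102004342, minus strand), the type II keratin of single-layered epithelia, stood at 0.922, 0.337, 0.111, 1.35 and 0.381 CPM in the controls and at 1.85, 1.02 and 0.417 CPM in the SDS libraries, from 3 to 47 counts each. The groups overlapped, and the log2 fold change of 0.80 ± 0.71 did not pass (edgeR adjusted p = 0.604), with 1.30 without control library 4 and 0.20 without SDS library 1. Krt18 (chr15:102028216-102032026, plus strand), its type I partner, stood at 1.16, 0.193, 0.148, 1.76 and 0.458 CPM in the controls and at 1.53, 0.984 and 0.792 CPM in the SDS libraries. In both genes controls 4 and 1 were the highest controls and controls 2 and 3 the lowest. The log2 fold change of Krt18 was 0.54 ± 0.73 (edgeR adjusted p = 0.743), with 1.14 without control library 4 and 0.24 without SDS library 1.

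Krt7 (chr15:101411043-101430313, plus strand), a type II keratin of ducts and mesothelium, stood at 2.70, 1.64, 0.443, 4.63 and 0.953 CPM in the controls and at 2.32, 1.55 and 0.959 CPM in the SDS libraries. All SDS values lay within the control range. The log2 fold change of -0.37 ± 0.68 did not pass (edgeR adjusted p = 0.818) and changed sign, to 0.17, without control library 4. The ratio of Krt7 to Krt8 was 0.740, 1.18, 0.914, 0.869 and 0.621 in the controls and 0.320, 0.386 and 0.573 in the SDS libraries. All SDS ratios were lower than all control ratios, a mean log2 difference of -1.03 (exact permutation p = 0.0357, adjusted 0.0786) on counts as low as 3 in Krt8, and -1.26 without SDS library 3. The Krt18 to Krt8 ratio was 1.62, 0.774, 1.66, 1.67 and 1.53 in the controls and 1.07, 1.25 and 2.39 in the SDS libraries, with overlapping groups (difference 0.08, exact permutation p = 0.786, the same after adjustment) and a change of sign without SDS library 3 (-0.27) or control library 2 (-0.14).

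Markers of mesothelium, the simple epithelium on the outer surface of organs in the body cavities, had the same order of libraries in part. Their sum over 8 genes was 27.8, 8.76, 14.6, 75.9 and 15.9 CPM in the controls and 41.4, 41.0 and 23.6 CPM in the SDS libraries. Controls 4 and 1 were again the highest controls and controls 2 and 3 the lowest. Bnc1 went the other way, lowest in controls 1 and 4 (3.72 and 4.16 CPM) and highest in control 3 (8.68 CPM). All 8 genes were tested and none passed, with a median log2 fold change of 0.37. Of 12 glandular stomach genes 2 passed the filter and 4 had 0 counts in every library, and the list summed to 2.12 to 4.98 CPM in controls and 1.502 to 4.64 in SDS libraries. Of 8 airway epithelial genes 2 passed the filter, of 5 thyroid and parathyroid genes 3 did and of 5 Merkel and neuroendocrine genes 3 did, and none was called. The thyroid and parathyroid list summed to 0.295 to 5.78 CPM in controls, highest in control library 4, and to 0.876 to 2.44 in SDS libraries. The airway list, nearly all of it Cyp2f2, summed to 282 to 978 CPM in controls and to 179, 175 and 1001 CPM in SDS libraries. The Merkel and neuroendocrine list summed to 10.2 to 14.95 and 11.4 to 13.6 CPM. The part of these tissues in the levels of Krt7, Krt8 and Krt18 was not tested.

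The stress keratins are made by wounded or hyperproliferative keratinocytes and were the keratins with the highest fold changes. Krt16 rose with a log2 fold change of 7.74 ± 1.27 (edgeR adjusted p = 0.0374) and Krt6b with 6.74 ± 1.03 (0.0320). Krt17, at 5.59 ± 1.12 (edgeR adjusted p = 0.0550), and Krt6a, at 5.00 ± 0.98 (0.0538), did not pass. Without SDS library 3 all 4 passed, with log2 fold changes of 8.33 for Krt16, 7.32 for Krt6b, 6.17 for Krt17 and 5.58 for Krt6a. Over the 18 alternatives the call held in 6 for Krt16 and in 7 for Krt6b. In TPM, Krt16 stood at 6.92 to 14.6 in the controls and at 4112, 3099 and 15.2 in the SDS libraries, so that SDS library 3 barely exceeded the controls, and Krt16 was below Krt14 in every library. Krt6b reached 7253 and 6536 TPM in SDS libraries 1 and 2, above Krt5 at 4330 and 4343 TPM in the same libraries, and 115 TPM in SDS library 3 against 29.7 to 82.1 TPM in the controls. In SDS library 3, Krt6b and Krt16 thus lay above every control, as did Krt5 at 3994 TPM and Krt14 at 1382 TPM. The highest controls of Krt5 and Krt14 were 3547 and 1044 TPM. Krt6a (50.3 TPM) and Krt17 (7.05 TPM) lay within their control ranges in SDS library 3.

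**Figure D4:**
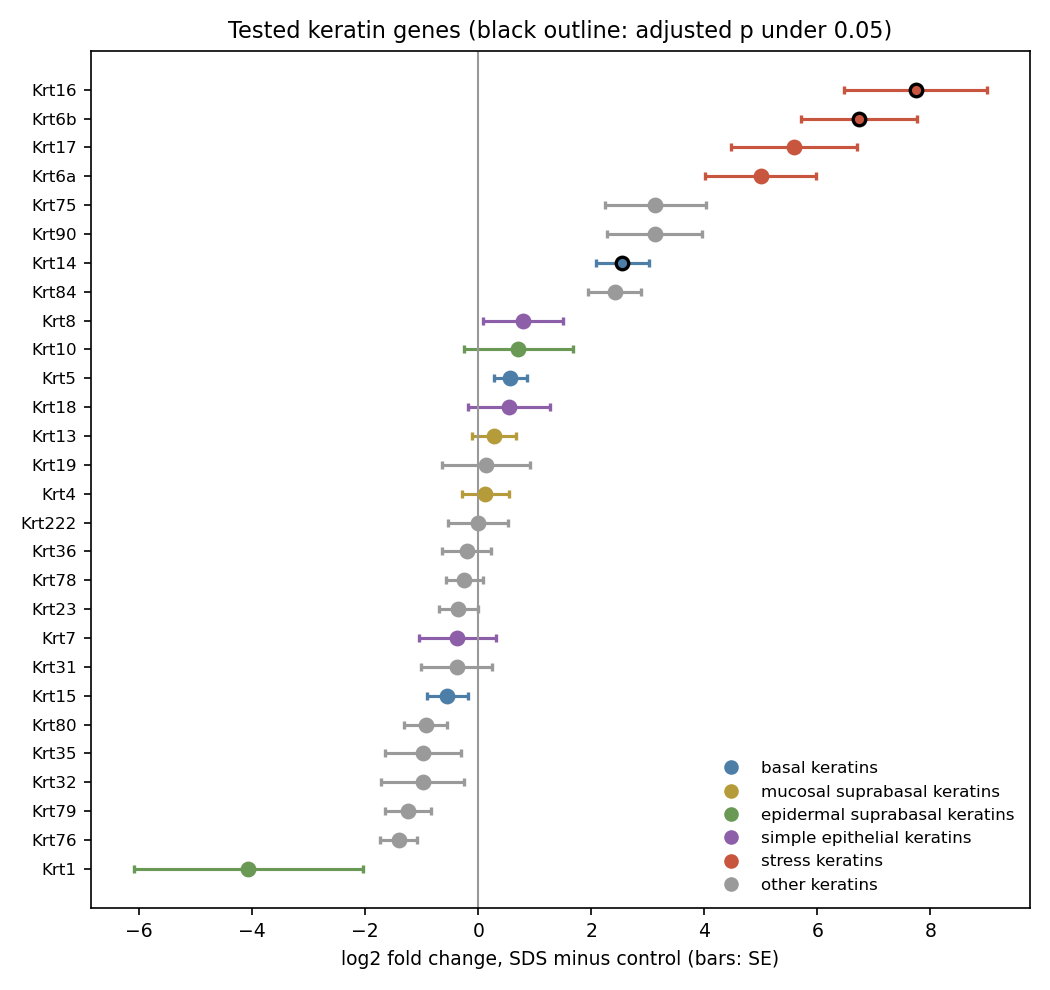
Log2 fold change of SDS against control with its standard error for the members, the stress keratins and the other tested keratins, from the edgeR fit over all genes. Of the members Krt14 passed at an adjusted p of 0.05 (2.55 ± 0.47), the stress keratins lie between 5.00 and 7.74, and Krt1 has the widest error (2.02).

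Of the other 40 keratin identifiers 14 passed the filter on low counts, and edgeR called none of them. Of these 14, 10 had a negative log2 fold change, with a median of -0.30 beside -0.005 over all genes tested. At an unadjusted p under 0.05 there were 6, beside 18.5% of all genes tested. DESeq2 called 5 (3 higher and 2 lower), beside 9.37% of all genes, and limma-voom 0, beside 0.71%. The most abundant in the controls were Krt78, with a mean of 1202 TPM and a log2 fold change of -0.24, Krt80 with 423 TPM and -0.93, Krt23 with 351 TPM and -0.35, Krt32 with 142 TPM and -0.99, and Krt76, a type II keratin of oral suprabasal cells, with 8.88 TPM. Krt76 was lower in all 3 SDS libraries than in any control (2.68 to 3.65 against 6.02 to 15.99 TPM) at a log2 fold change of -1.41 ± 0.33 that missed the threshold (edgeR adjusted p = 0.0758). Without SDS library 3 it was -1.58 and passed (adjusted p = 0.0482), and the other 4 were -0.60 for Krt78, -1.41 for Krt80, -0.84 for Krt23 and -2.10 for Krt32 without that library. The 3 that DESeq2 called higher, chosen here after their values were seen, were low in the controls, with means of 0.328 TPM for Krt84, 1.12 for Krt75 and 0.383 for Krt90. Krt84, a hair and tongue keratin, had 2.42 ± 0.47 without overlap (edgeR adjusted p = 0.0529), and passed without SDS library 3. Krt75 had 3.13 ± 0.90 (edgeR adjusted p = 0.118) and Krt90 3.13 ± 0.84 (0.103), both with overlapping groups. All 3 were highest in SDS libraries 1 and 2.

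On the lists of genes that work with these keratins edgeR called none. The list counts that follow stand beside shares over all genes tested. Of these, 18.5% had an unadjusted p under 0.05, DESeq2 called 9.37% and limma-voom 0.71%. Keratins are anchored to desmosomes and hemidesmosomes by plakins, plakophilins and integrins. Of 17 matched genes of this anchoring list 0 passed, with a median log2 fold change of 0.13 (3 at an unadjusted p under 0.05, 3 by DESeq2 and 0 by limma-voom). Dsg3, a desmosomal cadherin of the basal layers, had 1.14 ± 0.34 (edgeR adjusted p = 0.129), Itga6, the integrin of hemidesmosomes, 0.50, and Plec, the plakin that links keratin to them, -0.55.

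In the basal layer list none of 15 genes passed with edgeR (2 at an unadjusted p under 0.05, 1 by DESeq2 and 0 by limma-voom), with a median of -0.04. Trp63, the transcription factor that maintains stratified epithelium, had a log2 fold change of 0.24 ± 0.20, and Cd44 had 0.52. Of the 15, 9 were negative, among them Igfbp3, the gene DESeq2 called lower, at -0.49 ± 0.15 (edgeR adjusted p = 0.129). Summed over the list, basal layer genes stood at 1001 to 1237 CPM in the controls and 1045 to 1102 CPM in the SDS libraries, with the SDS range inside that of the controls. The sum leans on Itgb1 and Cav1, which stood at 396 and 383 CPM in control library 4, the highest of the controls. The sum without these genes was not taken. The basal keratins summed to 2560 to 5898 CPM in the controls and 6698 to 9634 CPM in the SDS libraries, without overlap.

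Of 18 tested genes of the suprabasal and cornified layer edgeR called none, with a median of -0.08 (2 at an unadjusted p under 0.05, 0 by DESeq2 and limma-voom). Lor, the main cornified envelope protein, had -0.69. Of 18 regulators of keratin genes edgeR called none, with a median of 0.02 (1 at an unadjusted p under 0.05, 0 by DESeq2 and limma-voom), and single values between -1.68 and 0.31. Of 11 keratin chaperones and modifiers none passed with edgeR, with a median of 0.09 (1 at an unadjusted p under 0.05, 0 by DESeq2 and limma-voom).

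Intermediate filaments of other cell types gave lower values in part. Of 10 such genes edgeR called none, with a median of -0.27 (4 at an unadjusted p under 0.05, 3 lower by DESeq2 and 0 by limma-voom). The muscle filament genes Des (-0.69), Synm (-0.97) and Sync (-0.92), the same 3 that DESeq2 called, were lower in every SDS library than in any control. Of all genes tested, 6.89% were lower in this way, and 1 gene of this list was higher without overlap. Striated muscle markers were lower in the same libraries, with a summed level of 30139 to 41081 CPM in the controls and 14059 to 25944 CPM in the SDS libraries, and 0 of 10 called by edgeR (7 at an unadjusted p under 0.05, 5 by DESeq2 and 0 by limma-voom). The part of muscle content in these filament genes was not tested. Of the 20 genes common to epithelia, Cdh3 (P-cadherin) rose, with 1.23 ± 0.23 (edgeR adjusted p = 0.0490), and the list's median was 0.14. Cdh3 was not called without any 1 of the controls, SDS library 1 or SDS library 2. Scaling to these genes lowered the median of all genes by 0.29 (to -0.29 on the log2 scale), and Krt14 then had 2.43 with an adjusted p of 0.0778.

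Leukocyte markers summed to 41.1 to 86.9 CPM in the controls and to 181, 367 and 62.6 CPM in SDS libraries 1 to 3, so they were high in the 2 libraries with the highest Krt14 and lowest Krt15. Their median log2 fold change was 1.62, with 0 of 6 called by edgeR. All 6 had an unadjusted p under 0.05, beside 18.5% of all genes tested. DESeq2 called 6 higher, beside 9.37% of all genes in either direction, and limma-voom 0, beside 0.71%. Fibroblast markers summed to 2029 to 2657 CPM in the controls and to 2476, 6248 and 999 CPM in the SDS libraries, and smooth muscle markers to 2860 to 8076 and 1929 to 4074 CPM. Their part in the basal keratin values was not tested.

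The genes whose pattern over the 8 libraries was most like that of a member were found by the root mean square difference of centred log2 CPM. The search covered 11176 genes of at least 5 CPM with an established symbol, and left out the members themselves. This is a description of these libraries, in which tissue makeup and depth are shared by all genes of a library. For Krt14, whose own range was 3.95, the nearest were Gk (0.34), Upp1 (0.34) and Tchh (0.34), and Gk, the glycerol kinase gene, rose with a log2 fold change of 2.18 (edgeR adjusted p = 0.0240), a call that held in 9 of 18 alternatives. For Krt15, with a range of 1.61, they were Cgref1 (0.10), Ifnlr1 (0.11) and Emp2 (0.12).

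For Krt13, with a range of 1.89, the nearest were Rnase1 (0.07), Tprg (0.09) and Sh3rf2 (0.11), as close as its partner Krt4 at 0.10. The basal keratins were farther from it, with Krt5 at 0.27 and Krt15 at 0.55. For Krt10, with a range of 4.25, no gene searched was nearer than Stfa1 (0.60), followed by Pygl (0.64) and Serpina12 (0.66). Among the members, Krt18 lay at 0.60 from Krt10 and Krt8 at 0.78, both on few counts, and its partner Krt1 at 2.00. For Krt8, with a range of 3.36, the nearest were Papss2 (0.32), AU020206 (0.44) and Lrg1 (0.45), with Krt18 at 0.41.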

How the data were processed

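Poly(A)-selected RNA, of whole esophagus by the treatment text and of cell pellets by the extraction text, was sequenced in 8 libraries, grouped by the treatment in the labels. The deposited values were raw read counts per gene, 1 table per library. The submitters' processing notes name STAR 2.6.1c, Subread, bcl2fastq, FastQC and the build mm10. Not given in the sources used here are the annotation, the strand setting and the rule for reads that match several genes. Symbols matched 48970 of 49315 identifiers.

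The counts went into edgeR 4.0.16 in R 4.3.3 (filterByExpr with a minimum count of 10 and total of 15, TMM scaling, robust quasi-likelihood test, two-sided, Benjamini-Hochberg adjustment over 17179 genes, threshold 0.05). CPM used TMM-scaled library sizes, and TPM used the lengths in the deposited tables. Standard errors are the log2 fold change over the square root of F. Pair ratios were log2 ratios of counts per length with 0.5 counts added, tested over all 56 divisions of the libraries. On simulated counts for 17179 genes with 200 changed, edgeR recovered 30% of 2-fold and 74% of 4-fold changes of the SDS comparison, with 5 false calls. No library was a copy of another of its group (chi-square per degree of freedom at least 24.1).

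The members and lists were chosen with earlier results of these data known. Named genes were all members, the stress keratins, called genes of each pathway list (up to 4), the called (up to 4) and the 5 most abundant other keratins, and the 3 genes most like each of 5 members. Others were picked as examples after their values were seen. Alternatives were other scalings and filters, DESeq2 1.42.0, limma-voom (limma 3.58.1), each library left out, other summaries of the ratios and a replicate block. The 6 block libraries without the block were added after seeing the data. A further comparison of coding sequences is not reported here.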

Additional observations from a re-analysis of the deposited data

Results flagged for a closer look

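In 3 of the 21 groups of 5 controls tested (10 levels and 11 ratios), 1 library lay far from the rest, measured as its gap to the nearest other library over the range of the group, with a critical value of 0.71. Chance alone gives about 1 in 20 such groups. For Krt1 the share was 0.886, with control library 4 at 462 CPM and the next highest at 53.9. For Krt10 it was 0.818, with the same library at 192 CPM and the next highest at 43.1. Levels were taken on the linear CPM scale. On the log2 scale the shares were 0.373 for Krt1 and 0.507 for Krt10, under the critical value, so both depend on the scale. For the log2 ratio of Krt18 to Krt8 it was 0.889, with control library 2 at -0.37 and the next lowest at 0.62. Control library 2 held 7 counts of Krt8 and 4 of Krt18.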

How the results depend on the processing

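Of the 180 genes called, the number fell to 6 when libraries were scaled to the epithelial genes and was 1610 with DESeq2, and leaving out 1 library at a time gave 4 to 1222 (1222 without SDS library 3, 122 without control library 4, and 56 or fewer without any other). Control and SDS libraries share replicate numbers, but the correlations of same-numbered libraries were 0.649, -0.043 and 0.438, and SDS library 2 did not correlate best with its own number, so the numbers were not taken to pair them. With the replicate block, on libraries 1 to 3 of both groups, edgeR called 0 genes (3130 at an unadjusted p under 0.05), and without the block on the same 6 libraries 2. Krt14 had 2.25 with the block (edgeR adjusted p = 0.202) and was called in 5 of 18 alternatives. The Krt4 fold change reversed with the block (-0.10) and on these libraries without it (-0.086), with epithelial scaling (-0.049), without control 4 (-0.06) and without SDS 3 (-0.24). Krt7 reversed in 3 alternatives (0.19 with the block, 0.011 without it, 0.17 without control 4, with a leave-one-out range of -0.72 to 0.17). Pygl reversed in 4 (0.35 with limma-voom, 0.86 without control 4, 1.29 with the block, 1.01 without it, with a leave-one-out range of -0.81 to 0.86). Lrg1 reversed in 2 (-0.23 with epithelial scaling, -0.015 without SDS 2, with a leave-one-out range of -0.015 to 0.83). The cause was not tested. The difference of Krt14/Krt15 was 4.21 from medians. Leaving out 1 library at a time, log2 differences ranged over 1.29 to 2.41 for Krt14/Krt5, -1.70 to -1.04 for Krt15/Krt5, 2.44 to 4.11 for Krt14/Krt15, 0.13 to 0.22 for Krt13/Krt4, 2.47 to 3.60 for Krt10/Krt1, -0.27 to 0.31 for Krt18/Krt8, -1.26 to -0.85 for Krt7/Krt8, 1.44 to 2.94 for Krt14/Krt13, 0.29 to 0.75 for Krt5/Krt4, 0.62 to 2.18 for Krt10/Krt13 and -2.60 to -0.13 for Krt1/Krt4. Depth limits Krt8 and Krt18, with as few as 3 and 4 counts.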
